A study of Mus musculus with 18 samples.

Results

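Small nucleolar RNA (snoRNA) host genes are transcription units whose introns are cut into snoRNAs, the guides that direct the chemical modification and processing of ribosomal RNA. In the 10 genes described here, Gas5, Snhg1, Snhg3, Snhg5, Snhg6, Snhg7, Snhg8, Snhg12, Snhg18 and Snhg20, the spliced exons left over after the snoRNAs are removed carry no recognised protein. They were taken by gene name from the 51912 genes of the count table, and 8 of the 10 had the 10 read pairs over 18 libraries needed to be tested. Snhg3 and Snhg7 fell short of that number, and the annotation of their rows is described below.

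The libraries came from primary cortical astrocyte cultures of mice of the B6;FVB strain that carries Tg(Aldh1l1-EGFP/Rpl10a)JD130Htz/J, crossed to C57BL/6J so that the young were hemizygous, in which the Aldh1l1 promoter drives the ribosomal protein RPL10A fused to EGFP, so that ribosomes of Aldh1l1-expressing cells can be pulled down with antibodies to GFP (translating ribosome affinity purification, TRAP). All groups carried this transgene. Cells were taken on postnatal day 0 from transgenic males and females in equal number, grown for 14 days, replated for 6 days and kept without serum for 24 h. Dishes then received serum-free medium alone (control) or with 50 mM ethanol for 24 h, in sealed chambers. RNA bound to the beads (IP) was sequenced from 6 control and 6 ethanol dishes, and RNA of the lysate before the pulldown (input) from 3 control and 3 ethanol dishes that also gave an IP library. The replicate is the dish, not the animal, so that p-values for ethanol within a fraction measure the spread between dishes of pooled cultures. Fits that join both fractions have no dish term and treat the input and IP libraries of a dish as independent. Their p-values do not measure the spread between dishes alone.

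Many noncoding host genes are known to begin, like the mRNAs of ribosomal proteins and elongation factors, at a cytosine followed by a run of pyrimidines, the terminal oligopyrimidine (TOP) motif, through which mTOR signalling and LARP1 control whether an mRNA is loaded onto ribosomes. Their spliced RNAs bind ribosomes over short reading frames and are then removed by nonsense-mediated decay, which destroys transcripts with early stop codons. Gas5 is the best known of them: its RNA accumulates in growth-arrested cells and can bind the glucocorticoid receptor in place of DNA. A host RNA can therefore be found in the TRAP fraction without coding for a protein. The comparison of IP with input sets host RNA on the tagged ribosomes beside host RNA of the lysate, from all cells of the dish.

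The first transcribed bases of the hosts are shown because they are what the TOP class rests on. RefSeq's table for GRCm38.p6 held a start for 9 of the 10 genes, and Snhg6 was not among them. Each line gives 70 bases, 45 before and 25 from the first transcribed base, read 5′ to 3′ on the gene's own strand. Capitals mark the longest run of C and T that starts within 20 bases of the first base, and, where present, a TATA-like hexamer 45 to 20 bases before it. The windows lie at chr1:161035121-161035190 (Gas5, plus strand), chr19:8723442-8723511 (Snhg1, plus), chr9:88522873-88522942 (Snhg5, minus), chr3:123508312-123508381 (Snhg8, minus), chr4:132308633-132308702 (Snhg12, plus), chr15:32244638-32244707 (Snhg18, minus), chr11:117076738-117076807 (Snhg20, plus), chr4:132353662-132353731 (Snhg3, minus) and chr2:26640220-26640289 (Snhg7, minus).
Gas5: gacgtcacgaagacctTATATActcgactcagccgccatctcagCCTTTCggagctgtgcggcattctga
Snhg1: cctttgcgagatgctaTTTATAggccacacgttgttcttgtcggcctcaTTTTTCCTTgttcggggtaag
Snhg5: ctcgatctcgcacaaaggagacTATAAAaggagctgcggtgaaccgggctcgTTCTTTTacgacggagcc
Snhg8: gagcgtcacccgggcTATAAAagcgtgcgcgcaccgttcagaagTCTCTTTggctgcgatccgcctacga
Snhg12: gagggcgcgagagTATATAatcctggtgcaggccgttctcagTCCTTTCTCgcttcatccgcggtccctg
Snhg18: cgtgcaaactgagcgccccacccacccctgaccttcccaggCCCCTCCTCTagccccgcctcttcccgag
Snhg20: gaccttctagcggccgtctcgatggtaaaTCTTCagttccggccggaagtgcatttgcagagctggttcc
Snhg3: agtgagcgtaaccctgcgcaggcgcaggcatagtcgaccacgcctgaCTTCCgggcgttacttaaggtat
Snhg7: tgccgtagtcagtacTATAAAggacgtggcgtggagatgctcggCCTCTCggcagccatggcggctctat

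A strict TOP-like start, C at the first base and at least 4 further C or T, was present in Gas5, Snhg7 and Snhg8, that is in 3 of the 9 genes, against 2.51% of the 32851 promoters in the table. In Snhg1, Snhg5, Snhg12 and Snhg18 a run of 7 to 10 pyrimidines began between 4 bases before the first base and the 8th transcribed base. A run of at least 5 pyrimidines within 20 bases is itself common, at 59.6% of all promoters. A hexamer TATAAA on either strand, or TATATA, lay in the window 45 to 20 bases upstream in 6 of the 9 genes (Gas5, Snhg1, Snhg5, Snhg7, Snhg8 and Snhg12) and in 3.53% of all promoters. Both features together occurred in 0.107% of promoters. Snhg20 had no such hexamer, and within 20 bases its longest run, of 5 pyrimidines, lay upstream of the annotated first base, which is a G. Gas5 has a further RefSeq start upstream at chr1:161034556-161034625 with neither feature. These are matches of letters around annotated starts, and the start used in these cultures was not measured.

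Sequencing depth was high and even enough for genes of this level, with 74239854 to 132810705 read pairs assigned to genes per library (median 84119135). The astrocyte markers were present in every library, at 1510 to 1600 CPM (counts scaled to the library's size) summed over 10 genes in input and 2380 to 2560 in IP. Markers of other cell types were present too. The summed level of 6 microglial markers was 39.3 to 51.7 CPM in input and 6.37 to 9.14 CPM in IP, and that of 3 meningeal fibroblast markers reached 170 CPM in input, with every input library above the IP range of 47.3 to 57.1 CPM. Those of 6 oligodendrocyte-lineage and 5 neuronal markers were slightly higher in IP, at 48.2 to 56.9 against 36.9 to 40 CPM and at 117 to 137 against 96.9 to 109 CPM. Input holds RNA of all cells in a dish, whereas IP is drawn from tagged ribosomes. Host RNA of cells without the tag therefore counts in input, and its part in the comparisons of IP with input below was not tested. Between treatments, fewer cells of one type and less RNA per cell cannot be told apart in bulk RNA. Multiply mapped pairs made up 4.56% to 4.77% of the input libraries and 2.95% to 3.19% of the IP libraries, so that this share, like the marker levels, moved with the fraction, and its part in the results below was not tested.

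How much of each host RNA was counted depended on its neighbours. Snhg3, host of H/ACA-box snoRNAs beside the gene for the chromatin-binding factor Rcc1, shares 86.3% of its exon bases with other genes. Of all its exon bases, 71.5% are shared with Gm17300 on the opposite strand. On its own strand 13.7% are shared with Rcc1 and 16.1% with Snora73a. The unstranded counts used here leave out pairs that fall on more than 1 gene, and Snhg3 kept 8 pairs over all 18 libraries, while counts restricted to its own strand held 1793. Snhg6 shares 11.1% of its exon bases with Mcmdc2 on the opposite strand, and its own-strand count of 16795 pairs was 116.9% of the unstranded count of 14369. For Gas5, Snhg1, Snhg5, Snhg8, Snhg12, Snhg18 and Snhg20 the counts by both rules agreed to between 99.43% and 100.1%. This agreement cannot show losses to genes on the same strand, where both rules leave out shared pairs. Such genes cover 17.8% of the exon bases of Gas5, 20.9% of Snhg1, 19.6% of Snhg12 and 15.2% of Snhg8. They cover 8.32% in Snhg5, 7.69% in Snhg20 and none in Snhg18. Levels per kilobase below still divide by these bases.

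The row named Snhg7 does not measure the host transcript. It carries the identifier ENSMUSG00000097052, the biotype snoRNA and a single exon of 139 bases at chr2:26637847-26637985 on the minus strand, and GENCODE names this gene Snora43, a snoRNA inside the Snhg7 transcription unit that RefSeq places at chr2:26637176-26640244. This exon shares 91.4% of its bases with another gene also named Snora43, and it received 2 pairs in all. No level of spliced Snhg7 is therefore given.

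**Figure D1:**
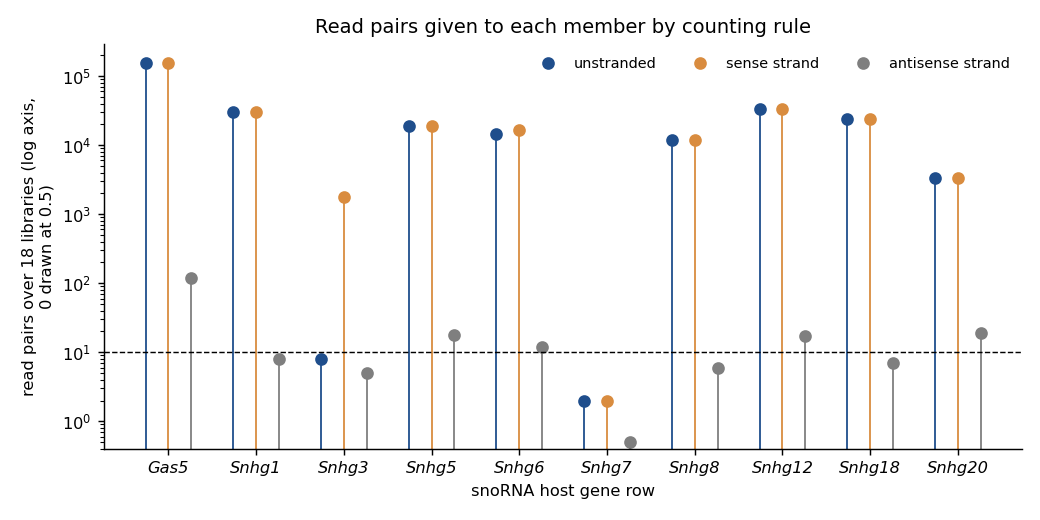
Read pairs summed over the 18 libraries for each of the 10 gene rows, on a log axis, by unstranded counting, by counts on the gene's own strand and by counts on the other strand, with the minimum of 10 pairs as a dashed line. Snhg3 rises from 8 to 1793 pairs on its own strand, Snhg7 stays at 2 pairs, and the other rows hold at least 3290 pairs by both rules.

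The snoRNAs themselves were almost invisible in these libraries. The annotation places 33 snoRNA or small Cajal body RNA genes inside the 10 hosts, from 10 in Gas5 and 8 in Snhg1 to 1 each in Snhg6, Snhg8, Snhg18 and Snhg20, and by unstranded counting 31 of them had no assigned pair in any library. Among the 33 genes are overlapping entries for Snord80 in Gas5 and for Snora16a in Snhg12, so that fewer snoRNAs are distinct. Of the 33 genes, 28 lie wholly inside an annotated exon of the row named for the host, where pairs count for neither gene. For Snhg7 that exon is the Snora43 gene described above, and in the other rows some annotated isoforms keep the intron. Snora17, in an intron of Snhg7, had 47 pairs over the 18 libraries, 1 to 7 per input library and 0 to 6 per IP library, and Snord123, in an intron of Snhg18, had 14. On the own strand, Snora73b, in an intron of Snhg3, had 103 pairs and Snora73a, partly in a Snhg3 exon, had 1. In Snora17 the log2 fold change of IP against input was -0.59 (adjusted p = 0.49), which at this depth shows no detectable difference.

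Levels of different genes were compared as CPM per kilobase of exon. Gas5 was highest by far at 39.6 ± 0.945 CPM per kb in input (SD, n = 6) and 19.3 ± 1.06 in IP (n = 12), and its mean over all libraries, 26.1 CPM per kb, was the 10th highest among 3340 tested genes of the biotypes lincRNA, antisense and processed transcript. In input, Snhg8 followed at 14.9 ± 0.491 CPM per kb, Snhg18 at 14.1 ± 0.978, Snhg12 at 12.6 ± 0.721, Snhg6 at 11.9 ± 0.761, Snhg5 at 9.94 ± 0.939 and Snhg1 at 8.68 ± 0.422. The input libraries of neighbours in this order overlapped, from Snhg8 down to Snhg1, while Gas5 stood apart from Snhg8. Snhg20, host of a small Cajal body RNA, was lowest at 0.741 ± 0.0468 CPM per kb in input and 0.766 ± 0.113 in IP.

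The order was not the same in IP. Snhg18 came after Gas5 there at 8.61 ± 0.347 CPM per kb, followed by Snhg12 at 7.12 ± 0.392, Snhg8 at 6.18 ± 0.518, Snhg6 at 6.08 ± 0.646, Snhg1 at 5.56 ± 0.37 and Snhg5 at 5.54 ± 0.52. Snhg8 thus moved from above Snhg18 and Snhg12 in input to below both in IP. In IP the libraries were separate between Gas5 and Snhg18, between Snhg18 and Snhg12 and between Snhg5 and Snhg20, and the other neighbours overlapped. With the length of the longest transcript in place of all exon bases, 5 of the 8 levels rose by more than their spread, Gas5 to 38.4 and Snhg12 to 14 CPM per kb over all libraries, so that the order of the middle genes depends on the isoforms assumed.

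**Figure D2:**
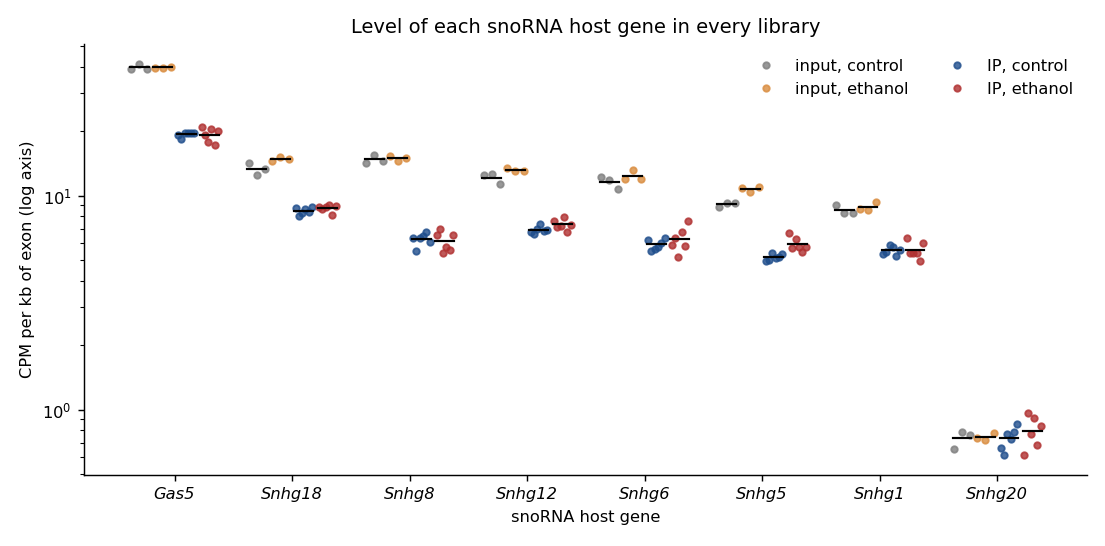
CPM per kilobase of exon on a log axis for the 8 tested host genes, with a point for each library (3 input control, 3 input ethanol, 6 IP control, 6 IP ethanol) and a bar at the group mean. Gas5 is highest and Snhg20 lowest, and all genes but Snhg20 are lower in IP than in input.

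Counts of the host RNAs were lower in the ribosome-bound fraction than in the lysate. In Snhg1, Snhg8 and Snhg12 the annotated exons of all isoforms join into 1 block, and those of Gas5 hold all 10 of its snoRNA genes. Spliced and intron-containing RNA are therefore counted together. Of the 8 tested members, 7 were lower in IP than in input, by 1.56-fold to 2.41-fold, and none was higher, against 25.8% of the 24495 tested genes called lower. The same 7 had no IP library as high as any input library, a separation in this direction that 11.9% of all genes showed. Snhg20 was the exception. The median log2 fold change of the 8 members was -0.83, beside -0.03 over all genes tested, and the 102 genes of the biotypes lincRNA and processed transcript that averaged 5 CPM or more had a median of -0.07, with 49% of them lower.

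Snhg8, host of the H/ACA-box snoRNA Snora24, had the lowest fold. Its input libraries held 12.15, 13.22 and 12.41 CPM in control and 13.05, 12.4 and 12.81 CPM in ethanol, and its 12 IP libraries held 4.6 to 5.92 CPM, with medians of 5.41 in control and 5.23 in ethanol. Each IP library lay below every input library. The log2 fold change was -1.27 (SE 0.0461, adjusted p = 7.44e-37 by edgeR's quasi-likelihood test).

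Gas5, host of a row of C/D-box snoRNAs, held 146.1, 155.4 and 145.8 CPM in the input control libraries and 147.9, 148.8 and 150.5 CPM in the input ethanol libraries. Its IP libraries ranged from 69 to 73.8 CPM in control (median 73.6) and from 64.7 to 78.5 CPM in ethanol (median 73.8). Input and IP were thus far apart, and the log2 fold change was -1.04 (SE 0.0295, adjusted p = 6.9e-22). With 153345 pairs in all, Gas5 was the most deeply counted member.

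Snhg6 and Snhg5 came next, both hosts of C/D-box snoRNAs. Snhg6 fell from 13.7 ± 0.872 CPM in input to 6.97 ± 0.74 in IP (log2 fold change -0.97, SE 0.0486, adjusted p = 2.45e-24), and counted on its own strand alone, without the bases lost to Mcmdc2, the change was -0.96. Snhg5 fell from 17.2 ± 1.63 to 9.58 ± 0.9 CPM (log2 fold change -0.84, SE 0.0372, adjusted p = 7.09e-32). For neither gene did an input library reach down to the IP range, which ended at 8.75 CPM for Snhg6 and 11.6 CPM for Snhg5.

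Snhg12, which hosts H/ACA-box snoRNAs together with Snord99, had 30.4 ± 1.73 CPM in input and 17.1 ± 0.942 CPM in IP (log2 fold change -0.83, SE 0.0309, adjusted p = 3.86e-36). Snhg18, host of Snord123 and the one tested gene free of exon overlap with another gene, had 20.9 ± 1.45 and 12.8 ± 0.515 CPM (log2 fold change -0.70, SE 0.034, adjusted p = 1.2e-29). Snhg1, the classical U22 host gene, showed the smallest change of the 7, from 25.8 ± 1.25 to 16.5 ± 1.1 CPM (log2 fold change -0.64, SE 0.0353, adjusted p = 9.15e-25). The libraries of the fractions were separate for each of the 3.

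Snhg20 did not follow. Its input libraries held 1.837, 2.193 and 2.129 CPM in control and 2.07, 2.026 and 2.174 CPM in ethanol, and its IP libraries ranged from 1.71 to 2.4 CPM in control (median 2.09) and from 1.72 to 2.69 CPM in ethanol (median 2.24). The fractions overlapped over the whole input range. The log2 fold change was 0.05 (SE 0.0851, adjusted p = 0.7), and with total counts in place of TMM scaling it was -0.005. At 139 to 336 pairs per library it was the least counted of the tested genes, with an SE that is nonetheless small beside the change of -0.64 seen in Snhg1.

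Counted on its own strand, Snhg3 could be placed beside the others. Its input libraries held 1.711, 1.344 and 1.733 CPM in control and 1.437, 1.355 and 1.862 CPM in ethanol, and its IP libraries averaged 0.969 ± 0.155 CPM in control and 0.928 ± 0.146 CPM in ethanol (n = 6 each). The highest IP library, at 1.183 CPM, lay below the lowest input library. In the own-strand fit over 23718 genes its log2 fold change was -0.73 (SE 0.107, adjusted p = 1.65e-08), which makes 8 of 9 measurable hosts lower in IP. That fit called 12568 genes in either direction, and the share called lower in it was not counted. Rcc1, the neighbour of Snhg3, encodes an exchange factor for the GTPase Ran. By unstranded counts Rcc1 was slightly higher in IP, with a log2 fold change of 0.17 (adjusted p = 0.000124).

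The ratio of IP to input CPM was also taken in each of the 6 dishes sequenced in both fractions. For each of the 7 called genes it was below 1 in 6 of 6 dishes. That was fixed by the separation of their libraries given above, so only the size of the ratio adds to it. It ran from 0.375 to 0.452 for Snhg8, from 0.434 to 0.52 for Gas5, from 0.442 to 0.64 for Snhg6, from 0.523 to 0.579 for Snhg5, from 0.52 to 0.608 for Snhg12, from 0.536 to 0.668 for Snhg18 and from 0.582 to 0.675 for Snhg1. Neighbours in this order overlapped, while the range of Snhg8 lay wholly below those of Snhg5, Snhg12, Snhg18 and Snhg1. For Snhg20 the ratio ran from 0.94 to 1.23 and was below 1 in 1 of 6 dishes.

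**Figure D3:**
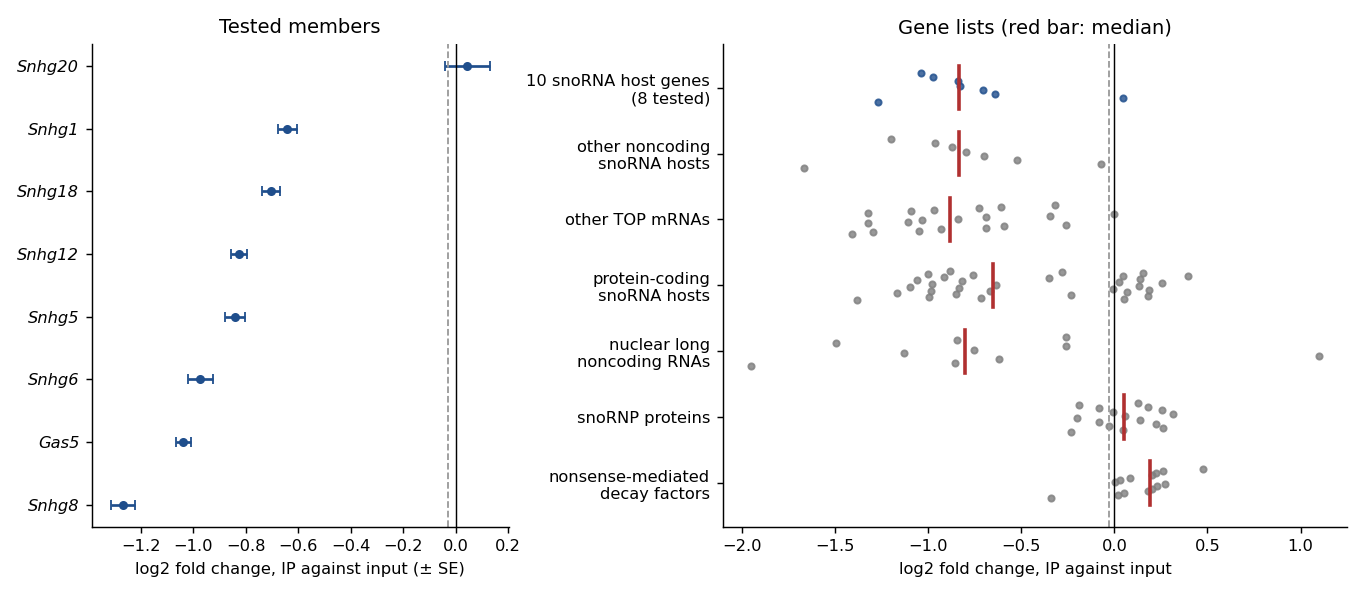
Left, log2 fold change of IP against input for the 8 tested members, with points for the estimate and bars for its SE. Right, the same quantity for every tested gene of 7 lists, with a red bar at each list's median, and in both panels a dashed line at -0.03, the median of all tested genes. The members, the other noncoding hosts and the other TOP mRNAs have medians of -0.83, -0.83 and -0.89, and the snoRNP proteins and decay factors lie around or above 0.

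Other hosts and TOP genes were set beside the members. Among 11 further noncoding hosts, 8 were tested and 7 were lower in IP, with a median log2 fold change of -0.83. Zfas1 had -1.20 (adjusted p = 3.37e-52), Snhg9 had -1.67 at a mean of only 0.0804 CPM, and Snhg11 was at -0.07 (adjusted p = 0.691). Of 20 TOP mRNAs outside the host lists, 19 were lower and the median was -0.89, with Tpt1, which encodes the tumour protein TCTP, at -1.41 and the ribosomal protein gene Rpl32 at -1.32.

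The 32 protein-coding hosts were mixed, with 20 lower, 8 higher and a median of -0.65. Over all genes tested 25.8% were lower and 25.2% higher, and over the 17056 tested protein-coding genes 29.5% were lower and 34% higher. Rps12 at -1.38 and Rps20 at -1.17, genes of the small ribosomal subunit, were at the lower end, and the mitochondrial genes Hspa9 (0.40), a chaperone, and Atp5b (0.26), a subunit of ATP synthase, at the upper. Low values in IP were thus not common to every snoRNA host, and the 7 lower members lay within the range of the ribosomal protein genes of this list, which ran from -1.38 for Rps12 to -0.64 for Rpl5. Nuclear long noncoding RNAs were also lower, 7 of 10 with a median of -0.80, among them Neat1 (-1.95) and Malat1 (-1.49), while Xist was at 1.10 (adjusted p = 0.0356).

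The letters at the start were also set beside the fractions over all genes. A gene name in RefSeq's promoter table was matched for 14335 tested genes. Among the 429 with C and at least 4 pyrimidines at an annotated first base, the median log2 fold change of IP against input was -0.04 with 35.7% lower, beside 0.00 and 29% for the 13906 without. Among genes averaging 5 CPM or more, 39.8% of 269 with this start and 31.5% of 8353 without it were lower, with medians of 0.00 and 0.05. Of 19 genes with both this start and a TATA-like hexamer 8 were lower (median -0.19), and of the 11 of these at 5 CPM or more 6 were (median -0.09). These groups contain the members and were compared without a test.

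Genes of the pathways around the hosts differed less between fractions. Of 14 nonsense-mediated decay factors, 9 were higher in IP and 1 was lower (median 0.19), with the helicase Upf1 at 0.48 and the kinase Smg1 at -0.34. Among all protein-coding genes 34% were called higher and 29.5% lower. The 16 snoRNP proteins and assembly factors, 3 of which are also among the protein-coding hosts, had a median of 0.05, with the AAA ATPase Ruvbl2 at 0.31 and Znhit3 at -0.23. Among 16 mTOR and TOP regulators (median -0.02), Larp1, which binds TOP motifs, was at 0.33, Rptor at 0.37 and Mtor itself at -0.28. Of 7 genes of the glucocorticoid receptor and its targets, 4 were not called, Per1 was at 0.33, Fkbp5 at -0.45 and Zbtb16, at a mean of 0.268 CPM, at -0.61 (adjusted p = 0.0134).

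The 7 lower members moved together over the 18 libraries, a measure that includes the difference between fractions. Pairwise Pearson correlations of log2 CPM among the 7 called genes ran from 0.928 (Snhg5 with Snhg6) to 0.991 (Gas5 with Snhg8), and those with Snhg20 from -0.131 to 0.016. After the group means were removed, Gas5 and Snhg12 still correlated at 0.732, whereas Snhg5 and Snhg6 were at -0.372. These points share libraries and scaling, and the values are a description. Over 11065 other genes with at least 5 CPM, the nearest to Gas5 were the ribosomal protein genes Rps27 (0.996) and Rpl17 (0.995) and the mitochondrial transfer RNA gene mt-Tp (0.995). Snhg6 was nearest to Zfas1 (0.982), Snhg8 to Neat1 (0.993), Rps19 (0.992) and Gas5 (0.991), Snhg5 to Amd1 (0.99), Pabpc1 (0.989) and Btg1 (0.987), and Snhg1 to Tbca (0.984). For Snhg12 and Snhg18 the nearest were Parp6 (0.993) and Kcnab1 (0.989). Snhg20 had no close partner, its nearest being Rusc1 at 0.728.

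Ethanol for 24 h changed few of the hosts, and by small amounts. In IP, 1 of the 8 tested members, Snhg5, was higher after ethanol and none was lower, against 11.9% of all genes called higher and 9.48% called lower. In input, Snhg5, Snhg12 and Snhg18 were higher and none was lower, 3 of 8 against 7.21% of all genes called higher. Among the 102 genes of the biotypes lincRNA and processed transcript that averaged 5 CPM or more, the shares called higher were 27.5% in input and 26.5% in IP. With GC and length trends removed, 4 of 8 members were called higher in IP: Snhg5, Snhg12, Snhg6 (0.19, adjusted p = 0.034) and Snhg18 (0.11, adjusted p = 0.0496). The shares given above come from the fit without this correction and are not the background of this count. The members' median log2 fold change was 0.07 in IP, beside 0.01 over all genes, and 0.07 in input, beside 0.00.

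Snhg5 was the member called in both fractions. Its input libraries held 15.27, 16.01 and 16 CPM in control and 18.81, 18.05 and 19.02 CPM in ethanol, and its IP libraries ranged from 8.56 to 9.29 CPM in control (median 8.87) and from 9.45 to 11.6 CPM in ethanol (median 9.96). In neither fraction did control and ethanol overlap, as was also so, with ethanol higher, for 14% of all genes in input and 5.09% in IP. The log2 fold change was 0.24 in input (SE 0.0528, adjusted p = 0.000158) and 0.21 in IP (SE 0.0496, adjusted p = 0.000781), which is a rise of 1.18-fold and 1.16-fold. In IP it was larger in the dishes without an input library (replicates 1 to 3, 0.29, adjusted p = 0.00147) than in those with one (replicates 4 to 6, 0.13, adjusted p = 0.245), and these subsets were not tested against each other. The call held in each of the 12 IP and 6 input fits without 1 library.

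Snhg12 held 29.89, 30.19 and 27.27 CPM in the input control libraries and 32.24, 31.33 and 31.22 CPM in the input ethanol libraries. The groups did not overlap, and the log2 fold change of 0.11 passed the test narrowly (SE 0.0407, adjusted p = 0.0385). In IP the libraries overlapped, at 15.9 to 17.6 CPM in control (median 16.5) and 16.3 to 19.1 CPM in ethanol (median 17.4), and the difference was 0.10 on the log2 scale (SE 0.0404, adjusted p = 0.0863). The input call was lost with DESeq2 (adjusted p = 0.0765), with genes kept from 1 pair on (adjusted p = 0.0538), without input control replicate 6 (log2 fold change 0.07, adjusted p = 0.436), and without input ethanol replicate 4 (adjusted p = 0.132), 5 (0.058) or 6 (0.0642). Without IP ethanol replicate 5 the IP difference was 0.12 with an adjusted p of 0.033.

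Snhg18 held 21.06, 18.63 and 19.7 CPM in the input control libraries and 21.43, 22.48 and 21.98 CPM in the input ethanol libraries, without overlap. Its log2 fold change in input was 0.15 (SE 0.0482, adjusted p = 0.0195). In IP it was 0.06 (SE 0.043, adjusted p = 0.431), with 11.9 to 13.2 CPM in control (median 12.6) and 12.1 to 13.4 CPM in ethanol (median 13.1). The input call was lost without input control replicate 5 (log2 fold change 0.10, adjusted p = 0.253) or 6 (adjusted p = 0.0706), and without input ethanol replicate 5 (adjusted p = 0.0992) or 6 (adjusted p = 0.0569).

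**Figure D4:**
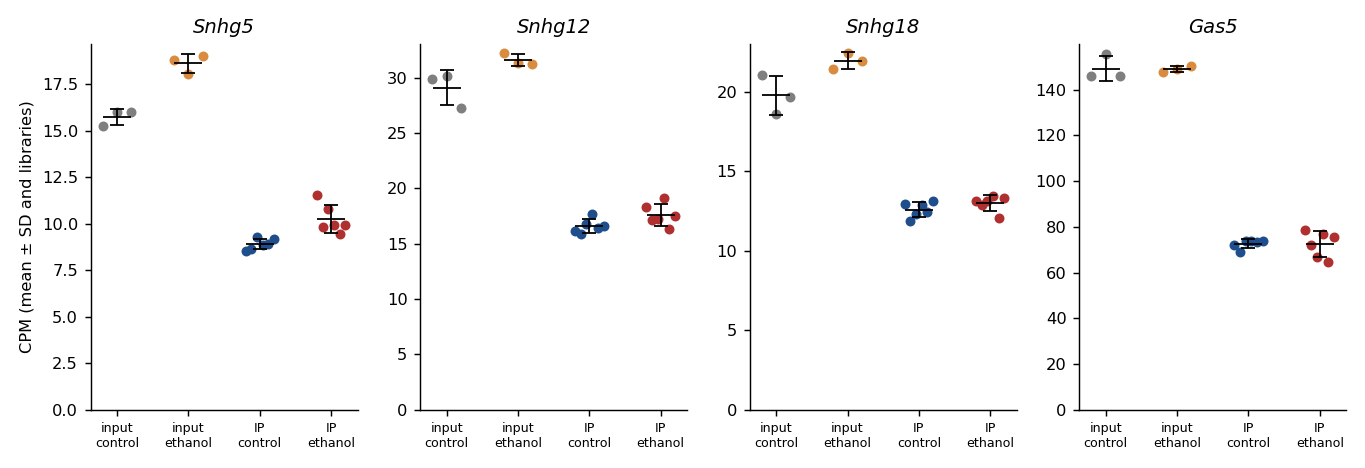
CPM of Snhg5, Snhg12, Snhg18 and Gas5 in every library of the 4 groups, with the group mean and SD in black and each axis starting at 0. The ethanol points lie above all control points for Snhg5 in both fractions and for Snhg12 and Snhg18 in input, while Gas5 differs between fractions and not visibly between treatments.

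Gas5, the most abundant host, showed no detectable response. Its log2 fold change after ethanol was 0.00 in IP (SE 0.0386, adjusted p = 0.971) and -0.01 in input (SE 0.0239, adjusted p = 0.946), errors that are small beside the changes seen in Snhg5. Snhg1 was at 0.01 in IP and 0.05 in input, and Snhg8 at -0.03 and 0.01. Snhg6 was at 0.09 in both fractions (SE 0.0652 in IP and 0.0583 in input), and Snhg20 at 0.12 in IP with an SE of 0.0994. In the own-strand fit Snhg3 was at -0.07 in IP (adjusted p = 0.784) and at -0.05 (0.912) in input. Snhg6 on its own strand was at 0.13 in input (adjusted p = 0.1) and 0.09 in IP (0.296).

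The spread among the ethanol IP libraries was wider than among the control IP libraries for Gas5, with an SD of 5.62 against 1.88 CPM. In IP ethanol replicate 5 all 8 members were below their group mean, by a median of 0.12 on the log2 scale, and in IP control replicate 2 they were likewise all below, by 0.08. Ethanol replicates 1, 4 and 6 lay above, with medians of 0.08, 0.07 and 0.08.

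**Figure D5:**
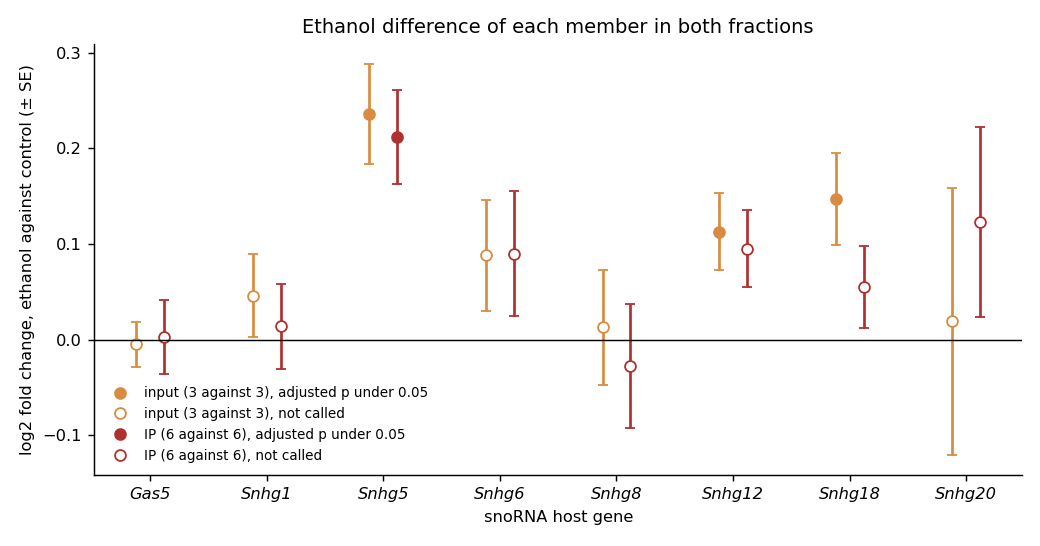
Log2 fold change of ethanol against control for the 8 tested members in input (orange) and IP (red), with bars for the SE and filled points for adjusted p-values under 0.05. Snhg5 is filled in both fractions, Snhg12 and Snhg18 in input only, and Gas5 sits at 0 in both.

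Whether ethanol acted differently on the host RNAs in the 2 fractions was tested as an interaction of fraction and treatment over all 18 libraries. By edgeR no member passed, and no gene in the table did (0% called), with 1459 of the 24495 genes below an unadjusted p of 0.05. The largest difference among the members was that of Snhg18, -0.10 in IP relative to input (SE 0.068, adjusted p = 0.872). For Snhg5 the difference was -0.04 (SE 0.0755), for Snhg12 -0.03 (SE 0.0628) and for Gas5 0.00 (SE 0.0642). The call of Snhg12 and Snhg18 in input and not in IP is therefore not a shown difference between the fractions.

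The neighbouring pathways did respond to ethanol. Of the 16 snoRNP proteins and assembly factors, 12 were lower in IP and 7 in input, with none higher in either (medians -0.15 and -0.12), and the C/D-box core protein gene Nop58 was the lowest in both, at -0.28 on the log2 scale in IP (adjusted p = 1.01e-11) and -0.26 in input (5.98e-12). Over all genes 9.48% and 7.78% were called lower. Of the 32 protein-coding hosts, 19 were lower and 2 higher in IP, and 17 lower and 1 higher in input, while the 8 tested further noncoding hosts had no call in IP and 2 higher in input, 1 of them Epb41l4aos (0.14, adjusted p = 0.0269). Of the other TOP mRNAs, 9 of 20 were lower in IP and 6 in input, and Pabpc1, the poly(A)-binding protein gene, was higher in both, by 0.12 and 0.09. The noncoding members thus had no call in the direction most common among the protein-coding hosts, though the lists were not tested against each other.

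Decay, mTOR and glucocorticoid genes were divided. Smg6, the endonuclease of nonsense-mediated decay, was higher in IP (0.17, adjusted p = 6.33e-07) and Eif4a3, of the exon junction complex, lower (-0.15, adjusted p = 5.4e-06), and 3 of 14 decay factors were higher and 4 lower. Among the mTOR and TOP regulators 3 were higher and 3 lower in IP, with the cap-binding protein gene Eif4e at -0.13 in IP and -0.10 in input. The glucocorticoid receptor gene Nr3c1 was higher in input (0.11, adjusted p = 6.63e-05) and in IP (0.10, adjusted p = 0.00719). Of the 7 genes of the receptor and its targets, 2 were higher and 2 lower in IP. The targets Tsc22d3 and Fkbp5 were at 0.13 (adjusted p = 0.00895) and -0.19 (adjusted p = 0.0418) there. Among markers of other cell types, the summed level of 5 endothelial and mural markers was 1300 to 1360 CPM in control and 895 to 964 CPM in ethanol input, and 1620 to 1760 against 1050 to 1240 CPM in IP. That sum is mostly Acta2, a contractile gene with a mean of 1220 CPM, which was called lower at -0.59 in input and -0.56 in IP. Pdgfrb (-0.02 in both), Flt1 (0.01 in input and 0.07 in IP) and Pecam1 (0.06 and 0.18) were not called, and Cldn5 was at 0 in every library. The part of Acta2-expressing cells in the results above was not tested.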

How the data were processed

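The authors made stranded, ribosomal RNA-depleted libraries and, per the labels, used Trimmomatic, STAR and SAMtools with GRCm38; versions are not given in the sources used here. The deposited values are raw read-pair counts per gene, unstranded in the series table and also by strand in the library files. Members and gene lists were chosen with earlier results of these data known.

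The 24495 genes with at least 10 pairs over 18 libraries were tested with edgeR 4.0.16 in R 4.3.3 (TMM, robust quasi-likelihood fit), with Benjamini-Hochberg adjustment over all of them at 0.05. IP against input used all 18 libraries with a treatment term, ethanol was fitted within each fraction, and their difference was the interaction. CPM are TMM-scaled. Exon lengths and overlaps came from GENCODE and promoters from RefSeq, both on GRCm38. Named genes were the members, genes overlapping or inside them, up to 3 nearest genes by correlation, and the extreme called genes of each list; Snhg11 and Rpl5 were named after their values were seen. Input and IP of one dish are paired by the labels (correlation of deviations 0.019 to 0.153). No replicates agreed within sampling noise. Alternatives were DESeq2 1.42.0, other scalings, filters, strand-specific counts, GC and length correction, blocks and leaving out each library.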

Additional observations from a re-analysis of the deposited data

Results flagged for a closer look

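In the IP control group, Gas5 in replicate 2 was the lowest of 6 libraries at 69.02 CPM, away from the others at 72.13 to 73.82 CPM, a gap of 0.648 of the group's range. It was the only one of the 16 groups of 6 libraries, 8 members in IP control and in IP ethanol, in which a library stood apart this far, and chance alone gives about 1 in 20 groups. The same library was below its group mean in all 8 members.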

How the results depend on the processing

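The 7 members called lower in IP were called in each of 11 alternatives and 18 fits without 1 library, with Snhg3 as an 8th on sense-strand counts. For ethanol in IP the count of 1 became 4 with GC and length trends removed (Snhg5, Snhg6, Snhg12 and Snhg18), 0 with IP replicates 4 to 6 only, and 1 to 2 without 1 library. For ethanol in input the 3 calls became 1 to 3, with 1 left without input control replicate 6 or input ethanol replicates 5 or 6, where 5 libraries remain. With the dish as replicate block in 12 libraries, 7 members were called for IP against input and 0 for the interaction. With the replicate number as block, 1 was called for ethanol in IP and 3 in input. Control and ethanol dishes share only that number, and the block changed no call.

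The values that changed sign were all uncalled and near 0. Snhg20 in IP against input went to -0.005 with total counts and -0.015 in control libraries only. For ethanol in IP, Gas5 went to -0.006 with DESeq2, RLE factors or the filter of 10 pairs in 6 libraries, -0.003 with the filter of 1 pair, -0.004 on the sense strand and -0.023 in replicates 4 to 6, where Snhg1 went to -0.026. Snhg8 went to 0.069 with GC and length trends removed and 0.052 in replicates 1 to 3. For ethanol in input, Gas5 went to 0.004 with total counts. In the interaction, Gas5 went to 0.002 with DESeq2 or RLE factors, and Snhg6 to 0.08 with the dish block and 0.082 in the same 12 libraries without it. Without 1 library, ethanol in IP ran from -0.021 to 0.033 for Gas5 and -0.025 to 0.044 for Snhg1, ethanol in input from -0.022 to 0.026 for Gas5, -0.012 to 0.05 for Snhg8 and -0.054 to 0.07 for Snhg20, and the interaction from -0.034 to 0.027 for Gas5, -0.068 to 0.042 for Snhg6 and -0.056 to 0.016 for Snhg12. The causes were not tested.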
